A study of Homo sapiens with 2 samples.

Results

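The 7 genes described here encode the subunits of the MCM2-7 replicative helicase (MCM2, MCM3, MCM4, MCM5, MCM6 and MCM7) and the sliding clamp PCNA. They were found by assigning each PacBio locus of the deposited isoform models to the GENCODE gene of hg38 with which its exons overlapped most on that strand. Each symbol matched 1 locus, and every position listed for those loci was taken from both edit tables. Their loci were 7 of 12178 loci with a listed site in either library, and each locus is called a gene in comparisons with all genes. They held 184 of 121930 listed C-to-U sites in the RBFOX2 library and 206 of 103684 in the enzyme-only library.

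Both libraries came from HEK293T cells, a human embryonic kidney line (given as HEK293XT in the cell line label), and were read as full-length cDNA on a PacBio instrument. In the INSCRIBE protocol the cells were fixed in methanol and exposed to a purified enzyme, the cytidine deaminase APOBEC1 joined to a nanobody against rabbit IgG. In the RBFOX2-INSCRIBE library the fusion was brought to RBFOX2 by a rabbit antibody, whereas the enzyme-only library received the fusion without that antibody. Both groups had 1 library each, so no difference below has a replicate check, no p-value was computed, and the 95% intervals cover counting error only. Several conversions can also stand on 1 read, which these intervals ignore. The enzyme-only library shows the C-to-U changes listed without that antibody, which need not all be edits by the free enzyme. It holds no second antibody, and no library without enzyme was analysed here. In the paper, controls without enzyme also gave C-to-U sites, put down to RNA damage and to reverse transcription or PCR errors.

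MCM2 to MCM7 form a ring of related ATPases that is loaded around DNA at replication origins in G1 phase and, once joined by CDC45 and the GINS complex, unwinds the double helix ahead of the polymerases in S phase. PCNA is a ring-shaped clamp that holds DNA polymerases on their template and gathers ligases, nucleases and chromatin factors at the fork. The genes are transcribed together as cells enter S phase and are strongly expressed in dividing cell lines. RBFOX2 is a splicing regulator that binds UGCAUG, and APOBEC1 prefers a cytosine that follows A or U.

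The windows below show the cytosines that carried the most converted reads in PCNA, MCM7, MCM3 and MCM6, to let the base directly 5′ of each cytosine be seen. They were read from hg38 on the minus strand, which all 4 genes use. The capitals mark the edited cytosine and the base before it. The PCNA windows at chr20:5118611-5118631, chr20:5118812-5118832, chr20:5118843-5118863 and chr20:5117533-5117553 lie in coding sequence and had 5, 4, 4 and no listed converted reads in the RBFOX2 library, against none, none, 2 and 4 for enzyme-only.
PCNA site a: tgttgaacaACttggaattcc
PCNA site b: gatatcattACactaagggcc
PCNA site c: gtccaaaatACtaaaatgcgc
PCNA site d: gtgaaatttTCtgcaagtgga
The MCM7 windows at chr7:100092804-100092824 (3′UTR) and chr7:100093310-100093330 (coding) hold the RBFOX2 sites of that gene, each with 3 converted reads. Those at chr7:100092870-100092890 (3′UTR) and chr7:100094195-100094215 (coding) hold the enzyme-only sites with the most converted reads, 5 and 4.
MCM7 site a: gctgcacttACtccttttgct
MCM7 site b: aaaggactcTCttctaggaga
MCM7 site c: tggcctgccCCttgggaaggg
MCM7 site d: tgcccggacCCtgctggctat
The overlapping MCM3 windows at chr6:52264137-52264157 and chr6:52264134-52264154 lie in the 3′UTR, and each cytosine had 3 converted reads in the RBFOX2 library and was not listed in the other. The last MCM3 window, at chr6:52264245-52264265, held the enzyme-only site with 4. The MCM6 window at chr2:135852839-135852859 lies in coding sequence and had 3 converted reads in the RBFOX2 library.
MCM3 site a: ctctgaggcACgtcatgcagg
MCM3 site b: tgaggcacgTCatgcaggtca
MCM3 site c: tttgggggcACaactgttttc
MCM6: atcaattgaTCgtgtctattc
In these windows the RBFOX2 sites followed A or U and both enzyme-only MCM7 sites followed C, but the windows are examples. Of all 10 enzyme-only MCM7 sites 7 followed A or U, and RBFOX2 sites of MCM2 with 2 converted reads also followed C.

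**Figure D1:**
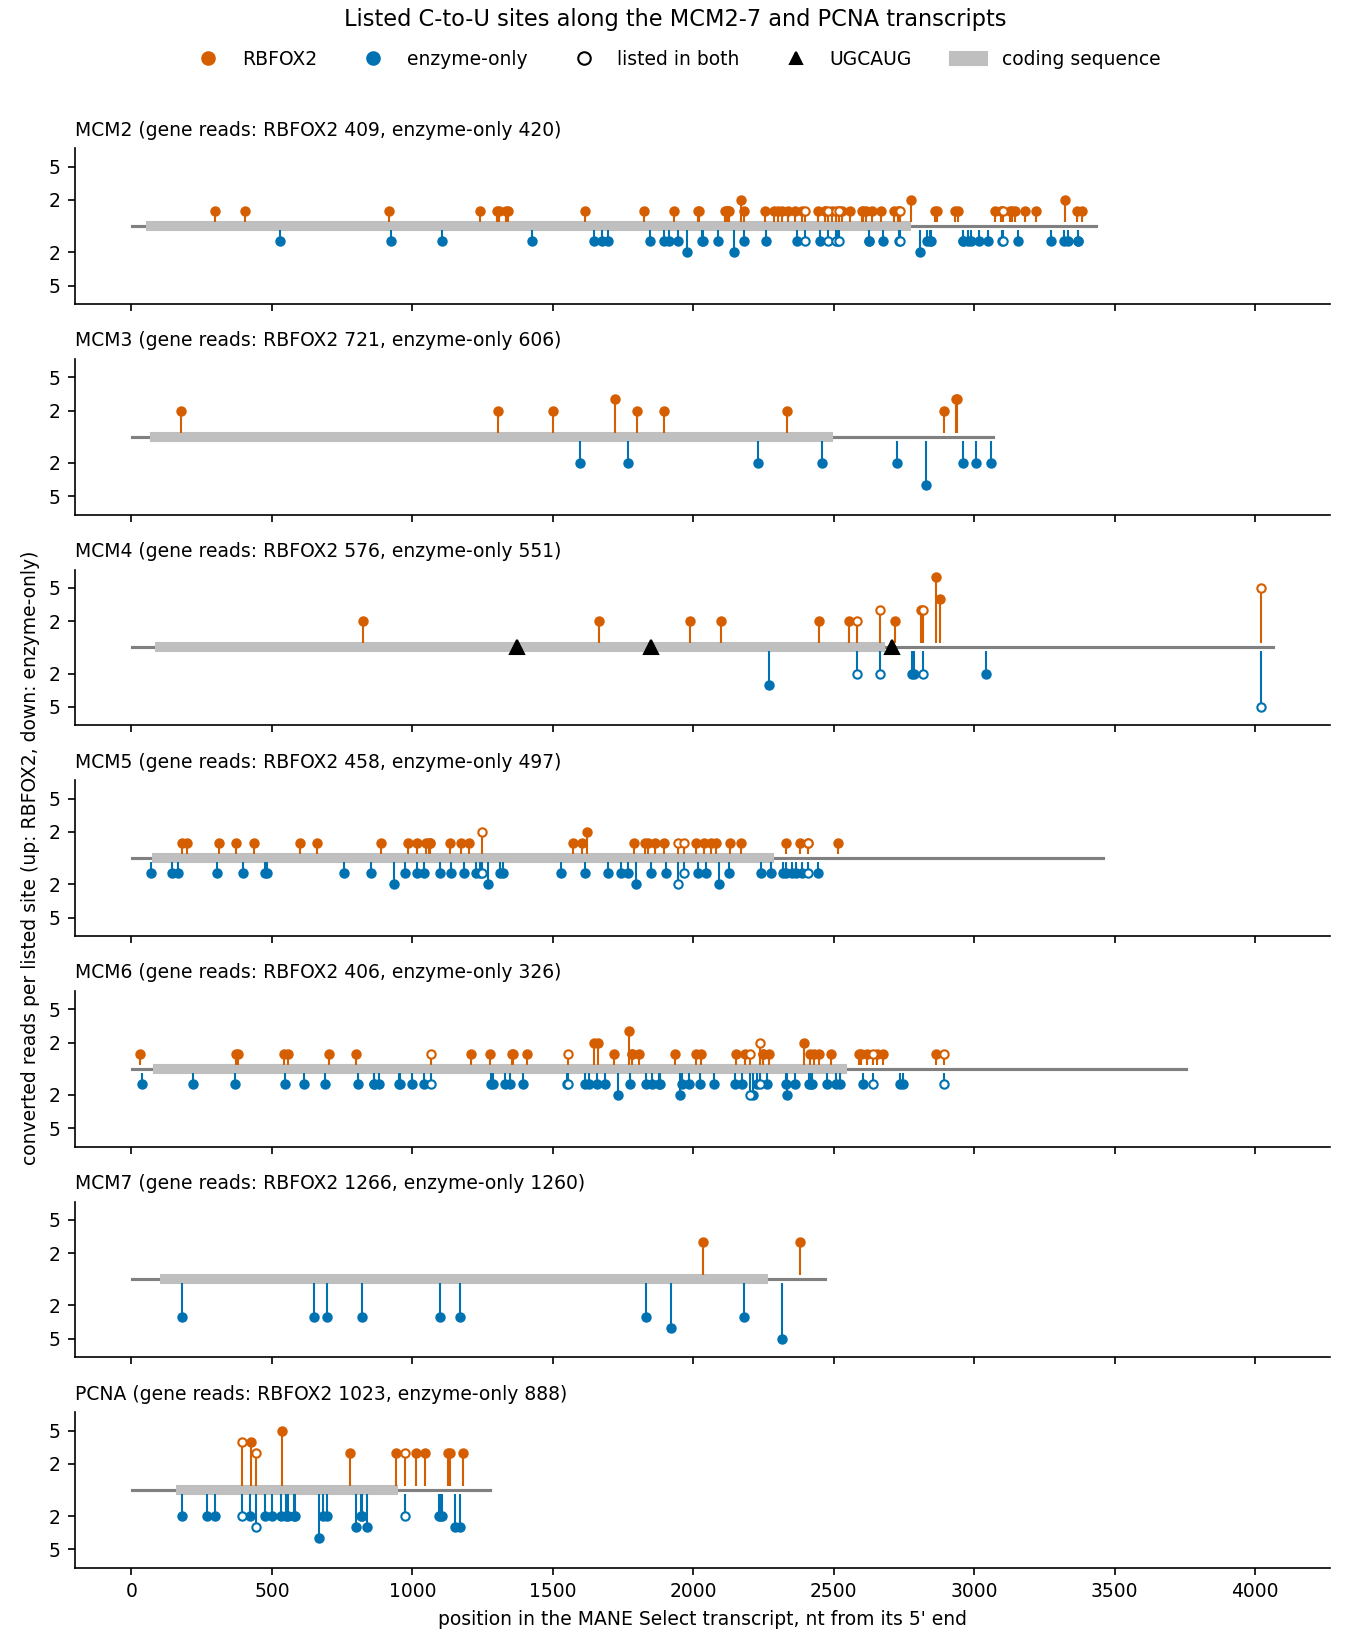
Each row is the MANE Select transcript of 1 gene, with the position in nt from its 5′ end on the horizontal axis, coding sequence as the grey bar and UGCAUG as triangles. Each stem is 1 listed site, up for RBFOX2 and down for enzyme-only, with its length giving the converted reads and open circles marking sites listed in both libraries. MCM2, MCM5 and MCM6 are lined with sites of mostly 1 converted read, MCM7 has 2 RBFOX2 and 10 enzyme-only sites, and the triangles appear on MCM4 alone.

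The 7 genes were deeply read, with gene reads of 406 (MCM6) to 1266 (MCM7) under RBFOX2 and 326 (MCM6) to 1260 (MCM7) under enzyme-only conditions. Between 85.1% and 98.2% of genes had fewer reads, against a median of 96.0 and 87.0 reads per listed gene. In bulk RNA, more cells in S phase and more RNA per cell cannot be told apart. The libraries as a whole held 2431345 and 2233600 gene reads. Of the markers checked for the HEK293 line, NEFM was listed in both libraries (281 and 263 reads), PAX2 only in the enzyme-only library (3 reads) and LIN28B in neither. PTPRC, ALB, CD3E and INS, markers of other cell types, were listed in neither, although these tables name only genes with an edit site.

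Depth also set how many converted reads a site needed to be listed. No site of either table had an edit fraction (converted reads over all reads of its gene) of 0.002 or less, so a gene needed 1 converted read below 500 gene reads and more above. The minimum was 1 in both libraries for MCM2, MCM5 and MCM6, 2 in both for MCM3 and MCM4, and 3 in both for MCM7. For PCNA it was 3 in the RBFOX2 library, with 1023 reads, and 2 in the enzyme-only library, with 888 reads. Site numbers of PCNA are therefore not like for like as deposited, and site numbers of MCM2, MCM5 and MCM6 cannot be set against those of the other genes.

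Of the listed sites, 25 stood in both libraries, a share of 13.6% (8.99 to 19.4) for RBFOX2 and 12.1% (8.01 to 17.4) for enzyme-only in these genes, beside 10.3% and 12.1% over all genes. At 17 of the 25 the converted reads were equal, at 6 they were more numerous in the RBFOX2 library and at 2 fewer, and 14 rested on 1 converted read in each library. MCM2 held 8 of them, MCM6 6, MCM4 and MCM5 4 each and PCNA 3. The site with the most reads among them lay in the 3′UTR of MCM4, with 5 converted reads in either library. The comparisons that follow omit these 25 sites and concern 159 RBFOX2 and 181 enzyme-only sites.

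Across the 7 genes the RBFOX2 library had fewer such sites than the enzyme-only library. After scaling by the unshared sites of each whole library (109357 and 91111, a ratio of 1.20), the log2 ratio of RBFOX2 to enzyme-only sites was -0.45 (95% interval -0.77 to -0.13). The sites carried 223 converted reads on 4859 gene reads in the RBFOX2 library, or 45.9 (40.1 to 52.3) per 1000 gene reads. In the enzyme-only library they carried 260 on 4548, or 57.2 (50.4 to 64.6) per 1000. With the same minimum of converted reads in both libraries (the higher of the 2 minimums of each gene), 159 and 163 sites were left, the log2 ratio was -0.38 (-0.71 to -0.06), and the enzyme-only value was 49.3 (43.0 to 56.1) per 1000. The intervals of the converted reads overlapped under both settings. The log2 ratio was -0.28 when scaled by the gene reads of the 7 genes in place of the library totals. No interval was computed for that value, and the log2 intervals above hold for scaling by library totals only. Over sites with at least 2 converted reads, 39 against 57, the log2 ratio was -1.40. That value was scaled by the library totals of such sites, 15654 and 8612. It also includes PCNA at its unequal minimums, 9 against 23 sites. Edit fractions of the unshared sites were low in both, at 0.218% to 1.04% of gene reads for RBFOX2 and at 0.201% to 0.660% for enzyme-only.

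**Figure D2:**
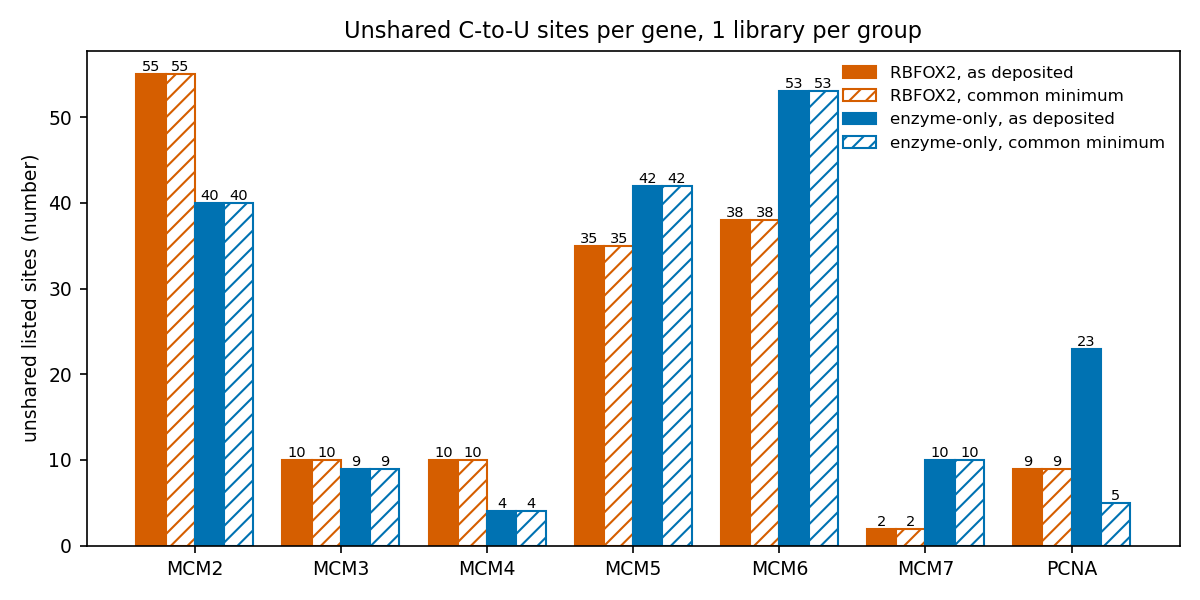
Bars give the number of unshared listed sites (vertical axis) of each gene in the 1 RBFOX2 and the 1 enzyme-only library, filled as deposited and hatched with the higher of the minimums of each gene applied to both libraries. Only PCNA changes between filled and hatched bars, from 9 against 23 sites to 9 against 5.

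The genes did not move together. MCM2, whose N-terminal tail binds histones H3 and H4, had 409 and 420 gene reads and more sites in the RBFOX2 library, 55 against 40. Its scaled log2 ratio was 0.19 (-0.42 to 0.82), and its converted reads were 142 (108 to 183) per 1000 gene reads against 102 (74.1 to 138), so the intervals overlapped. Only 3 of its unshared sites in each library had 2 converted reads and the rest had 1. Over those sites alone the numbers were equal. The scaled log2 ratio of -0.86 came only from the library totals of such sites, 15654 and 8612. The excess of MCM2 sites in the RBFOX2 library thus rested on sites of 1 converted read. MCM5, the subunit beside MCM2 at the gate through which DNA enters the ring, had 35 RBFOX2 sites against 42, with a scaled log2 ratio of -0.52 (-1.22 to 0.16). Its converted reads, 78.6 (55.1 to 109) against 92.6 (67.8 to 123) per 1000, also overlapped.

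MCM4, MCM6 and MCM7 form the subcomplex that unwinds DNA by itself in the test tube. MCM6 had 38 RBFOX2 sites against 53 although it had more reads in the RBFOX2 library, 406 against 326. Its scaled log2 ratio of -0.74 (-1.38 to -0.12) excluded 0 in counting error, while its converted reads, 106 (76.6 to 143) against 175 (132 to 227) per 1000, overlapped. MCM7 had nearly equal depth, 1266 and 1260 reads, the same minimum of 3 converted reads, and 2 sites against 10. Its scaled log2 ratio was -2.33 (-5.82 to -0.35), and its converted reads were 4.74 (1.74 to 10.3) per 1000 in the RBFOX2 library and 26.2 (18.0 to 36.8) in the enzyme-only library. These intervals did not overlap. MCM4 went the other way, with 10 sites against 4 on 576 and 551 reads. Its converted reads were 46.9 (30.9 to 68.2) against 16.3 (7.47 to 31.0) per 1000, with intervals that met at their ends, and its scaled log2 ratio was 0.96 (-0.74 to 3.19). The log2 intervals of all 3 genes overlapped.

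MCM3, which joins the helicase to the loading complex at the origin, did not differ between the libraries beyond counting error. It had 10 RBFOX2 and 9 enzyme-only sites on 721 and 606 reads, none of them shared, and 31.9 (20.2 to 47.9) against 33.0 (20.2 to 51.0) converted reads per 1000. PCNA had 9 sites against 23 as deposited, a scaled log2 ratio of -1.57 (-2.91 to -0.45), and 29.3 (19.8 to 41.9) against 58.6 (43.7 to 76.8) converted reads per 1000. Of the 23 enzyme-only sites 5 had at least the 3 converted reads that the RBFOX2 table required. With that minimum on both sides the direction turned, to a scaled log2 ratio of 0.44 (-1.23 to 2.43), and the enzyme-only converted reads fell to 18.0 per 1000.

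**Figure D3:**
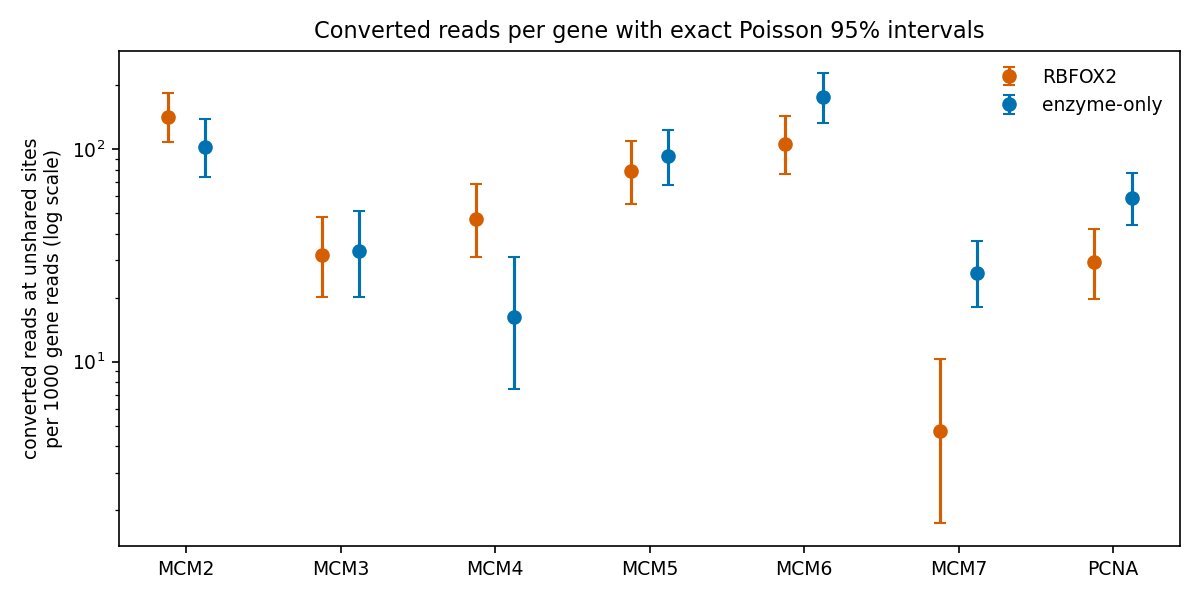
Points give the converted reads at unshared sites per 1000 gene reads of each gene (vertical axis, log scale) in the RBFOX2 and enzyme-only libraries, as deposited, and bars the exact Poisson 95% intervals, which cover counting error only. MCM7 and PCNA have intervals that do not overlap, both higher in the enzyme-only library, and the PCNA difference rests on unequal minimums.

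By converted reads per 1000 gene reads, the order in the RBFOX2 library was MCM2, MCM6, MCM5, MCM4, MCM3, PCNA and MCM7. Each gene overlapped its neighbour in this order except PCNA and MCM7. In the enzyme-only library the order was MCM6, MCM2, MCM5, PCNA, MCM3, MCM7 and MCM4, and every gene overlapped its neighbour. At 18.0 per 1000 with the same minimum, PCNA would stand after MCM7. In both libraries the 3 genes below 500 reads stood first, and these were the genes in which single converted reads were listed.

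A log2 ratio was read against the other genes where at least 20 unshared sites were listed over both libraries, which held for 3604 genes and for MCM2, MCM5, MCM6 and PCNA. None of these 4 had a scaled log2 ratio over 1, a limit passed by 16.8% of the 3604 genes, and PCNA alone was under -1, as were 14.6%. With the same minimum on both sides PCNA dropped below 20 sites. The median of the 4 was -0.63, beside 0.08 over all 3604 genes. Of those genes, 154 had a higher minimum in the RBFOX2 library, as PCNA did, and their median of -2.78 became 0.39 once the minimum was the same. MCM7, with 12 sites, was set instead against 5298 genes with at least 10 sites and the same minimum in both libraries, a class chosen after the data had been seen, in which 14.5% were under -1 and 19.3% over 1. MCM7 at -2.33 was under -1 in that class, and MCM4 at 0.96 did not pass 1, although it was 1.16 when scaled by its gene reads.

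Of the 789 genes with 500 reads or more in both libraries, the depth of MCM3, MCM4, MCM7 and PCNA, 497 (63.0%) had more sites in the RBFOX2 library, 204 had fewer and 88 had equal numbers. Together they had 7743 RBFOX2 and 4585 enzyme-only sites. Their ratio was 1.69 (1.63 to 1.75) as deposited and 2.03 (1.95 to 2.11) with the same minimum. The 4 deeply read replication genes had 31 and 46 sites as deposited, with a ratio of 0.674 (0.413 to 1.09). With the same minimum they had 31 and 28, and the ratio was 1.11 (0.643 to 1.92). For the 7287 genes under 500 reads the ratio was 1.24 (1.23 to 1.25), and for MCM2, MCM5 and MCM6 together 0.948 (0.739 to 1.22) with 128 and 135 sites. In both depth classes the value of the replication genes was below that of all genes. Divided by the ratio of gene reads, the values were 0.621 (0.381 to 1.00) against 1.62 for the deep class, or 1.02 (0.592 to 1.77) against 1.95 with the same minimum. For MCM2, MCM5 and MCM6 the value per read was 0.926 (0.721 to 1.19) against 1.13, which lay within its interval. These intervals hold counting error alone and do not test whether the 7 genes stand apart.

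The sequence around the sites differed between the depth classes. Over all 7 genes, A or U stood directly 5′ of 67.3% (59.4 to 74.5) of 159 RBFOX2 sites and 61.1% (53.6 to 68.3) of 180 exonic enzyme-only sites, beside 45.0% of the 5233 cytosines of the 7 MANE Select transcripts. Both shares were above that of the cytosines. In MCM3, MCM4, MCM7 and PCNA the shares were 93.5% (29 of 31) and 80.4% (37 of 46), and in MCM2, MCM5 and MCM6 they were 60.9% (78 of 128) and 54.5% (73 of 134). Over all genes they were 88.1% and 77.3% at 500 reads or more, and 70.2% and 63.3% below. A share of 24.5% (18.1 to 32.0) of the RBFOX2 and 31.5% (24.8 to 38.8) of the enzyme-only sites of the 7 genes had at least 2 converted reads, against 14.3% and 9.45% of all sites. All 31 and 46 sites of MCM3, MCM4, MCM7 and PCNA had at least 2 because their minimum required it, so these shares follow depth. In MCM2, MCM5 and MCM6, where 1 read sufficed, the shares with at least 2 were 6.25% and 8.15%. For all genes under 500 reads they were 7.17% and 4.35%. The deposited confidence score, which runs from 0 to 1, was at most 2.37e-07 (RBFOX2) and 1.04e-06 (enzyme-only) in the 7 genes. None of their sites reached 0.5, which allows a share of up to 1.63% and 1.46%, while 3.03% and 3.41% of all listed sites did. In these genes the score was the same at sites with equal converted reads and gene reads. At 1 converted read in the RBFOX2 library it was 8.15e-10 in MCM2, with 409 gene reads, and 6.60e-11 in MCM5, with 458. The contrast with genes of other depth therefore cannot be read as a trait of these sites.

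**Figure D4:**
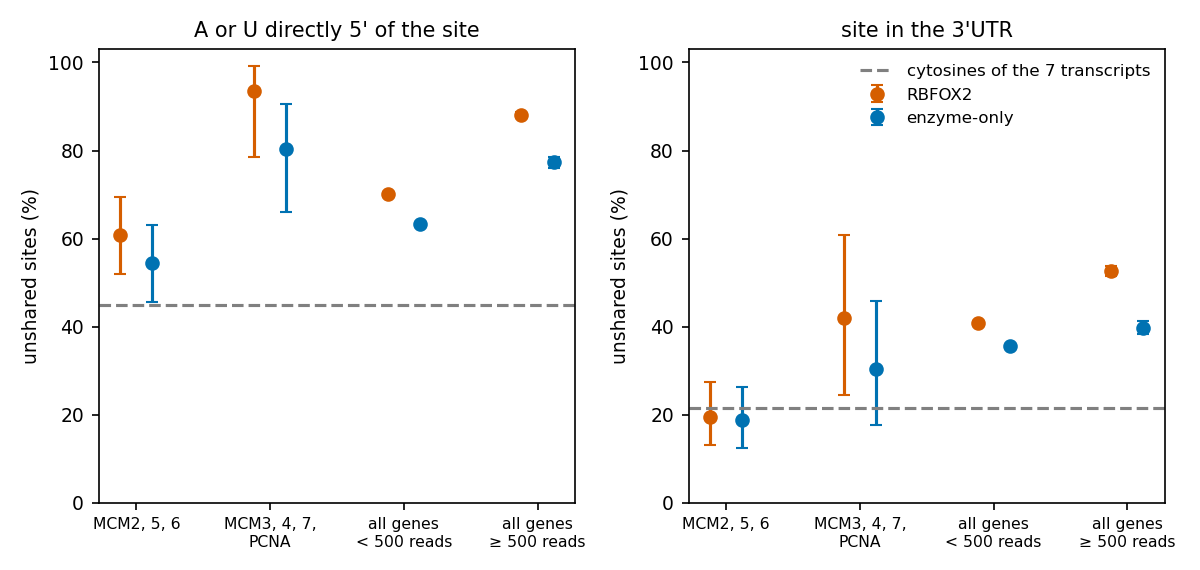
Points give the percent of unshared sites with A or U directly 5′ (left) and in the 3′UTR (right) for the shallow and deep replication genes and for all genes of the same depth classes, with exact Clopper-Pearson 95% intervals, and the dashed line gives the same percent of the cytosines of the 7 transcripts. The deep replication genes reach 93.5% (RBFOX2) and 80.4% (enzyme-only) on the left, near the 88.1% and 77.3% of all deep genes.

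UGCAUG was rare in these transcripts. On the transcript strand, the MANE Select transcript of MCM4 held 3 copies and those of the other genes held none, and MCM5, MCM6 and PCNA each held 1 copy in exon sequence of other isoforms only. These windows are shown from hg38 with the hexamer in capitals because they are the single copies in the exons of those genes. They lie at chr22:35422337-35422366 on the plus strand (MCM5), chr2:135856627-135856656 on the minus strand (MCM6) and chr20:5118214-5118243 on the minus strand (PCNA).
MCM5: caagcagggagcTGCATGaaggggacagtg
MCM6: ctcaacagctggTGCATGtatgtgcaccag
PCNA: tatatctactggTGCATGtttcaaagagag
The nearest RBFOX2 and enzyme-only sites lay 870 and 895 nt from the MCM5 copy, 127 and 104 nt from the MCM6 copy, and 390 and 393 nt from the PCNA copy.

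Of the RBFOX2 sites, 1 of 159 lay within 50 nt of UGCAUG, 0.629% (0.0159 to 3.45), and of the enzyme-only sites 2 of 180, 1.11% (0.135 to 3.96). Of the cytosines in the isoform exons of these genes 1.80% lay that near, and of those of the 7 MANE Select transcripts 1.43%. Over all genes 3.95% of RBFOX2 and 2.32% of enzyme-only sites lay that near. Both enzyme-only sites were in MCM5, beside a copy in an intron, and along the spliced transcript, a measure added after the data had been seen, 1 RBFOX2 and 0 enzyme-only sites were within 50 nt. A difference between the libraries was not detectable at these numbers. The shorter motif GCAUG, which lies within UGCAUG, stood within 50 nt of 9.43% and 9.44% of the sites. It stood that near 11.1% of the cytosines in the isoform exons and 12.7% of those of the MANE Select transcripts. The genes went both ways: MCM2, with 7 copies of GCAUG in its transcript, gave 10 of 55 RBFOX2 and 4 of 40 enzyme-only sites, MCM4, with 8 copies, gave 1 in each library, and MCM5, with 2, gave 0 and 5.

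The RBFOX2 site within 50 nt lay in the 3′UTR of MCM4, at chr8:47976815-47976815 on the plus strand, 6 nt 3′ of the third UGCAUG (chr8:47976804-47976809, transcript positions 2706 to 2711), and had 2 converted reads of 576. The 200 nt on the 3′ side of this copy, a window chosen after its values had been seen, held 5 RBFOX2 sites with 18 converted reads, or 31.2 (18.5 to 49.4) per 1000 gene reads. The enzyme-only library had 3 sites there with 6 converted reads, 10.9 (4.0 to 23.7) per 1000. The RBFOX2 sites lay 6, 101, 105, 151 and 168 nt from the copy with 2, 3, 3, 6 and 4 converted reads. The enzyme-only sites lay 68, 76 and 105 nt away with 2 converted reads each, so that the site at 105 nt was listed in both. The site at 151 nt had the highest edit fraction among the RBFOX2 sites of the 7 genes, 1.04%, and followed A. On the 5′ side the libraries had 7 and 4 converted reads. The copies in the coding sequence had few: within 200 nt the first (position 1374) had no listed site in either library, and the second (position 1848) had 2 converted reads on each side under RBFOX2 and no listed site without the antibody.

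By region, the coding share was 75.5% (68.0 to 81.9) for RBFOX2 and 76.7% (69.8 to 82.6) for enzyme-only, beside 75.3% of the cytosines of the 7 transcripts. The 3′UTR held 23.9% (17.5 to 31.3) and 21.7% (15.9 to 28.4), beside 21.5% of the cytosines and 41.6% and 35.6% of the sites of all genes. The region shares of the 7 genes together were within counting error of the cytosines of these transcripts, and their 3′UTR shares were below those of all genes. The depth classes differed. In MCM3, MCM4, MCM7 and PCNA the 3′UTR shares were 41.9% (24.5 to 60.9) for RBFOX2, an interval above 21.5%, and 30.4% (17.7 to 45.8) for enzyme-only. In MCM2, MCM5 and MCM6 they were 19.5% and 18.7%. The 21.5% is of all 7 transcripts and not of either depth class. Over all genes the 3′UTR shares were 52.7% and 39.8% at 500 reads or more, and 40.8% and 35.5% below. The merged exons of all isoforms, which include retained introns, gave other shares of cytosines, 48.7% coding and 15.2% in the 3′UTR, both below the shares of the sites. In PCNA, 7 of 9 RBFOX2 sites lay within 500 nt of the transcript's 3′ end against 9 of 23 enzyme-only sites, with median distances of 262 and 607 nt. With the same minimum, an alternative added after the data had been seen, 4 of 5 enzyme-only sites lay there, at a median of 437 nt. In MCM3 the order was opposite, with medians of 1220 and 344 nt. In MCM4, MCM5 and MCM6 no unshared site lay in the last 500 nt of the MANE Select transcript in either library. Many isoform models of these genes ended before that stretch, and how many reads covered it was not given. The cytosines of the 7 transcripts above include it.

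Read against the codons of the MANE Select transcripts, a C-to-U change at the 120 coding RBFOX2 sites was synonymous at 63, changed an amino acid at 51 and created a stop codon at 6. At the 138 coding enzyme-only sites the numbers were 66, 61 and 11. The share that altered the protein was 47.5% (38.3 to 56.8) and 52.2% (43.5 to 60.7), beside 52.3% of all 3925 coding cytosines, so neither library differed from the cytosines beyond counting error. The stop codons of the RBFOX2 library arose at codon 871 of 904 in MCM2, 478 of 808 in MCM3, 41 and 645 of 734 in MCM5, and 209 and 619 of 821 in MCM6. Each had 1 converted read except that of MCM3, which had 2. PCNA had stop-creating sites in the enzyme-only library alone, at codons 125 and 131 of 261 with 2 converted reads each, which is below the minimum of 3 in its RBFOX2 table. MCM7 had 1 in the enzyme-only library too, at codon 693 of 719 with 3. No stop-creating site was listed in MCM4 in either library.

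Isoforms were compared by editsC, the percent of an isoform's exonic cytosines that were listed as edited. For the merged exons it was 5.05% (RBFOX2) against 3.67% (enzyme-only) in MCM2, 0.728% against 0.655% in MCM3, 0.706% against 0.282% in MCM4, 2.28% against 2.68% in MCM5, 3.84% against 5.35% in MCM6, 0.160% against 0.801% in MCM7 and 1.31% against 3.36% in PCNA. Except in MCM3, most isoforms went the way of their gene. EditsC was higher in the RBFOX2 library in all 16 MCM2 isoforms and in 52 of 57 MCM4 isoforms. It was lower in 26 of 29 MCM5, 37 of 38 MCM6, 27 of 28 MCM7 and all 16 PCNA isoforms, and MCM3 was mixed, with 16 higher, 20 lower and 13 equal of 49. PCNA turned under the same minimum, to 1.31% against 0.730%, and all 16 of its isoforms were higher in the RBFOX2 library. Isoforms of a gene share exons and hence sites, and reads were given per gene, so these are not separate measurements. The microRNA hairpins MIR25 and MIR106B lie within the MCM7 locus. The MIR25 hairpin lay in an exon of 1 of 28 isoforms and the MIR106B hairpin in none, and neither held a listed site.

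Other genes of DNA replication spread to both sides. Of 28 genes of origin licensing and helicase activation, all had a listed site and 16 had at least 20, of which none was over 1 (16.8% of the 3604 genes) and 2 were under -1 (14.6% of them), with a median of 0.32. MTBP, which acts with TICRR in origin firing, had 4 RBFOX2 against 19 enzyme-only sites, a scaled log2 ratio of -2.38 (-4.53 to -0.92). DBF4, the activating subunit of the CDC7 kinase that phosphorylates the helicase, had 7 against 13 and -1.11 (-2.72 to 0.27). The highest were ORC3 of the origin recognition complex (0.99), GINS3 (0.94) and TIPIN (0.87), a fork protection factor. Of 35 genes of the replication fork and PCNA partners, 30 had a listed site and 21 had at least 20, of which 2 were over 1 and 5 under -1, beside the same 16.8% and 14.6%, with a median of -0.26. The median of the licensing genes was above, and that of the fork genes below, the 0.08 of all genes.

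Among the PCNA partners, LIG1, which seals Okazaki fragments, had 17 RBFOX2 against 4 enzyme-only sites (1.70, 0.21 to 3.85), and PCLAF, which binds PCNA, had 28 against 11 (1.05, 0.03 to 2.24). POLD2, a subunit of polymerase delta, had 3 against 49 (-4.09), and UHRF1, which brings DNMT1 to newly replicated DNA, 9 against 18 (-1.22). Both had over 500 reads in the RBFOX2 library and under 500 in the enzyme-only library (547 and 490 for POLD2, 543 and 445 for UHRF1). Their minimums were therefore unequal, as were those of PCNA at its greater depth. With the same minimum POLD2 had 3 against 3 sites (-0.35) and UHRF1 9 against 2 (1.58). RFC4 of the clamp loader (16 against 35, -1.37), POLE, the leading-strand polymerase (8 against 16, -1.22), and RNASEH2C (26 against 46, -1.07) had the same minimum in both libraries as deposited.

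**Figure D5:**
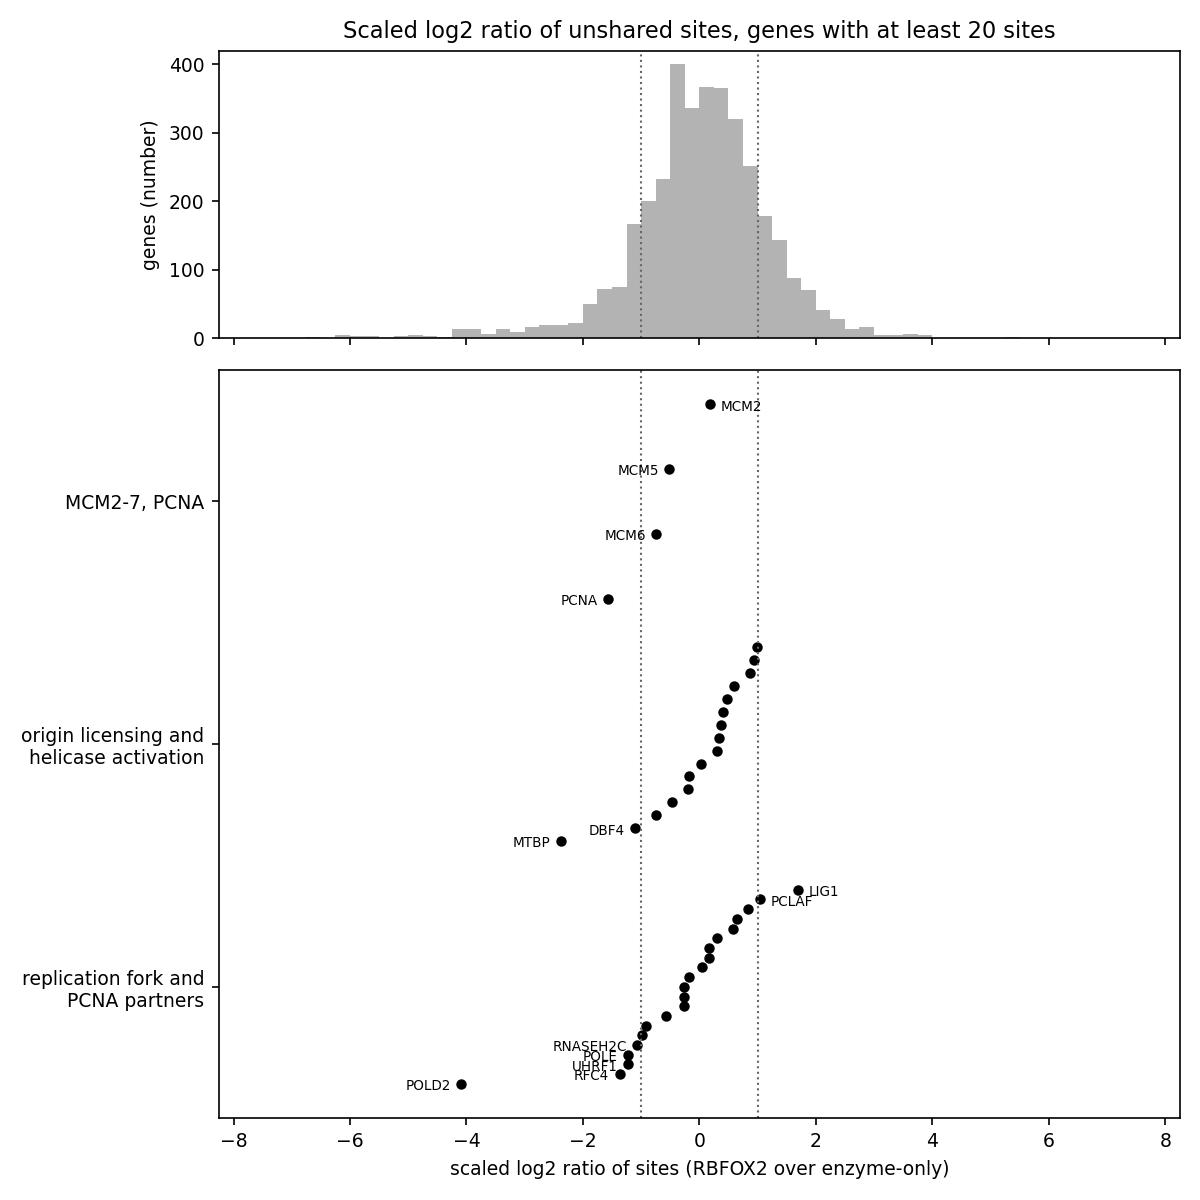
The upper panel counts the 3604 genes with at least 20 unshared sites by their scaled log2 ratio of RBFOX2 to enzyme-only sites (horizontal axis), and the lower panel places the MCM and PCNA genes and both related lists on the same axis, as deposited, with dotted lines at -1 and 1. PCNA at -1.57 and POLD2 at -4.09 lie under -1 and have unequal minimums of converted reads in the libraries.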

How the data were processed

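HEK293T libraries were assigned to RBFOX2 and enzyme-only by their descriptions in the labels, which name the PacBio Iso-seq SMRTbell kit and hg38. The methods describe alignment of full-length reads with pbmm2 and edit calls by the authors' own code, but also another kit (Kinnex) and replicates not analysed here, so these tables may stem from another run. The collapse tool is not given in the sources used here. Values deposited by the authors for each site were a count of converted reads, a count of reads of the whole gene (the same at every site of a gene in a library), the edit fraction, which is their quotient, and a confidence score. Removal of known variants was not repeated.

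Loci were assigned with GENCODE 44 (bedtools 2.31.1). Sites were called coding before 3′UTR. Log2 ratios used a pseudocount of 0.5. Shares carry exact Clopper-Pearson and converted reads exact Poisson 95% intervals (scipy 1.17.1). Read counts were taken as deposited. The ratio steps were run on counts simulated from the binomial model that the intervals assume. That check covers neither unequal minimums nor several conversions on 1 read. Named genes were the 7 genes, all genes of the related lists past 1 or -1 and otherwise the 3 highest and 3 lowest, and sites with the most converted reads (up to 3 per library). The genes, lists and rules were chosen with earlier results of these data known. Alternatives were shared sites kept, at least 2 converted reads, a common minimum, scaling by gene reads, a pseudocount of 1, other windows and motifs, and other annotation rules.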

Additional observations from a re-analysis of the deposited data

How the results depend on the processing

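No paired analysis was possible because each group had 1 library and the replicate numbers of the labels pair nothing, and leaving out a replicate would have left a group empty. Of 57 recomputed values of the main comparisons 36 stayed within counting error and 21 moved. The order of the libraries turned in 5 of these settings: for the share of sites on 2 or more converted reads under the common minimum (24.5% RBFOX2, 23.9% enzyme-only), and for the share near UGCAUG with at least 2 converted reads (2.56%, 0%), with windows of 20 and 200 nt and along the spliced transcript. Of the recomputed values of single genes and of the background 66 stayed and 14 moved. The remaining 1, the scaled log2 ratio of PCNA, reversed from a value whose interval excluded 0. With a common minimum of converted reads it was 0.44, but its interval there (-1.23 to 2.43) held 0. The scaled log2 ratio of MCM2, whose interval held 0, was -0.86 with at least 2 converted reads, although both libraries then had 3 sites. Keeping shared sites gave 54.7 (RBFOX2) and 65.5 (enzyme-only) converted reads per 1000 gene reads. The common minimum gave 49.3 per 1000 in the enzyme-only library. Sites with at least 2 converted reads gave a scaled log2 ratio of -1.40, 21.2 and 29.9 converted reads per 1000, A or U directly 5′ at 89.7% and 71.9%, editsC of 0.468% and 0.684%, a 3′UTR share of 38.5% (RBFOX2), and 0 of 57 enzyme-only sites near UGCAUG, which allows 5.26%. A 20 nt window gave 0 of 180 enzyme-only sites, which allows 1.67%, and so did the distance along the spliced transcript, chosen after the data had been seen. GCAUG gave 9.43% and 9.44%. A 200 nt window around UGCAUG gave 12.6% (7.86 to 18.8) and 9.44% (5.60 to 14.7), with intervals that overlapped. Over all genes the shares in that window were 12.4% and 9.63%, and 8.88% of the cytosines in the isoform exons lay that near. The 7 genes thus did not differ from all genes or from these cytosines beyond counting error. Counting UTRs before coding sequence gave 3′UTR shares of 52.2% (44.1 to 60.2) and 36.7% (29.6 to 44.2). Beside these stood 59.6% and 54.3% of the sites of all genes, and 30.8% of the cytosines in the isoform exons. Those exons include retained introns, and the share of the MANE Select cytosines was not computed under this rule. Depth limits every statement: with 9 sites or fewer in the RBFOX2 library for MCM7 and PCNA, and mostly 1 converted read per site in MCM2, MCM5 and MCM6, a single read moves the values.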
